A study of Canis lupus familiaris with 28 samples.

Results

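Normal blood was compared with normal solid organs among the unaffected dogs of a study of histiocytic sarcoma (HS). The comparison took every unaffected library of the tissue count table, which is 6 of the 28 samples of the series. The study itself set a control library aside as an outlier before its tests, whereas all 6 were kept here, and the liver was left out as an alternative. The 3 blood libraries came from Bernese Mountain Dogs (BMDs), and the 3 organ libraries from German Shepherds (GSDs), with 1 liver, 1 lung and 1 spleen. None of these dogs was labelled with a treatment, and sex and age are not given in the labels. It is also not given whether the organs came from 1 dog or several. All 6 libraries were made from total RNA from which ribosomal and globin RNA had been depleted. The blood libraries were run on another flow cell than the organs, so tissue, breed and flow cell cannot be told apart in any result below. The organ group holds 1 library of each of 3 different tissues, so its spread is a spread between organs and not between animals with the same tissue.

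Blood carries its RNA in leukocytes, platelets and young red cells that circulate without a fixed scaffold. A solid organ adds parenchyma, vessel walls and connective tissue to whatever blood it holds, and the spleen also stores lymphocytes and filters old blood cells. Hepatocytes secrete plasma proteins and clear ammonia, alveolar epithelium lines the air spaces, and fibroblasts in all organs deposit collagens, laminins and fibulins. In bulk RNA, fewer cells of a type and less RNA per cell cannot be told apart.

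Between 133524755 and 147573323 reads were counted on genes in the blood libraries and between 153814215 and 180801439 in the organs. The 10 most abundant genes took 32.7% of the counts in liver and 6.17% to 10.4% in the other 5 libraries, and the TMM scaling factor was 0.418 in liver against 0.999 to 1.39 in the others. The biological coefficient of variation was 0.536 among the blood libraries and 0.936 among the organs. No library pair was a duplicate, the closest being blood 1 and blood 3 with a chi-square of 721 per gene. Gene levels are given as CPM (counts scaled to library size, after TMM scaling), and log2FC as blood minus organs, so that positive values are higher in blood. At this depth, 3 counts correspond to 0.0222 CPM in the blood library with the highest limit.

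The genes called higher in blood included some members of the myeloid, platelet, and T and NK cell lists below, such as *LYZ*, *LY6G6F* and *GRAP2*. Those called higher in the organs included vessel and matrix genes such as *FLT4* and *LAMA2*. The edgeR quasi-likelihood test covered 17557 genes, of which 2666 (15.2%) were called. A call needed a log2FC beyond 1.5 in either direction together with an adjusted p-value below 0.05. Of these, 1061 (6.04% of the genes tested) were higher in blood and 1605 (9.14%) were higher in the organs. In each called gene the 3 blood libraries and the 3 organs did not overlap, as was also so for all genes in 22.5% (blood above) and 23.6% (organs above). The median log2FC of all genes tested was -0.13. The calls depended on having all 3 blood libraries. Without blood 1, blood 2 or blood 3, edgeR called 0 genes, the smallest adjusted p-values being 0.0858, 0.0731 and 0.0546, although the unadjusted p-value was below 0.05 in 4561, 4973 and 5204 genes. DESeq2 on all 6 libraries called 4837 genes and shared 2558 of them with edgeR, which is 95.9% of the edgeR calls and 52.9% of its own. Without lung, 959 genes were called. Without the liver, 1033 of the genes then tested (5.47%) were called higher in blood and 2272 (12%) higher in the organs.

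**Figure D1:**
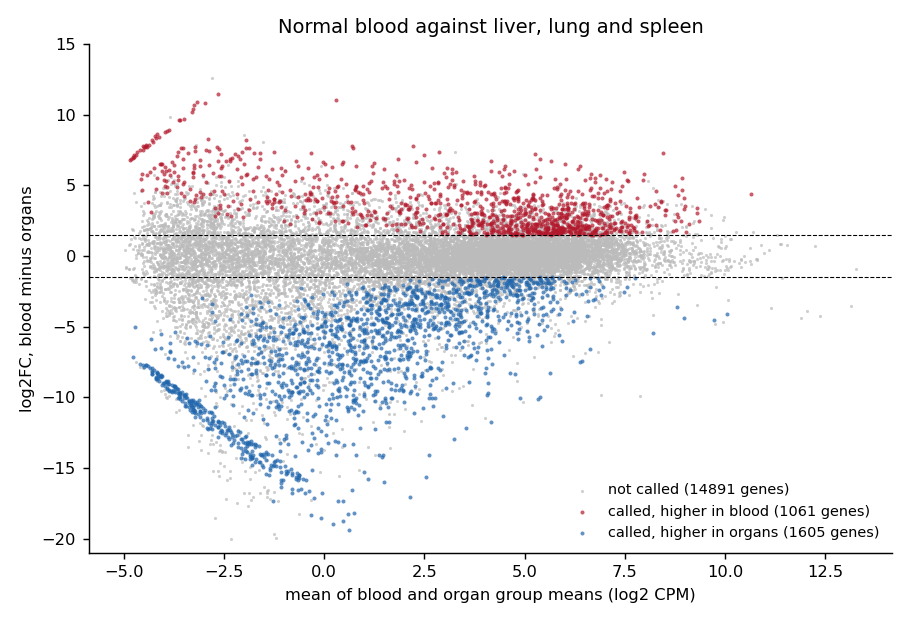
Each point is 1 of the 17557 genes tested, with the mean of the blood and organ group means (log2 CPM) on the x axis and log2FC (blood minus organs) on the y axis. Dashed lines mark a log2FC of 1.5 in either direction. The 1605 genes called higher in the organs reach larger log2FC than the 1061 called higher in blood, and the diagonal edges are genes with almost no counts in 1 group.

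The organs did not contribute equally to these calls. Among the 1061 genes higher in blood, the spleen was the organ nearest to blood in 587 (55.3%) and the liver the organ farthest from blood in 762 (71.8%). Over all genes tested, the spleen had the highest level of the 3 organs in 31.1%, and the liver the lowest in 47.6%. The median distance of the blood-high genes below the blood mean was 3.65 log2 units in liver, 3.09 in lung and 2.76 in spleen. Among the 1605 genes higher in the organs, lung was the highest organ in 764 (47.6%), against 35.3% of all genes tested, and the spleen in 268 (16.7%).

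Myeloid genes had the most calls of the lists on the blood side. Of 13 neutrophil and monocyte genes tested, 6 were called higher in blood (against 6.04% of all genes) and 0 higher in the organs (9.14%). The list median log2FC was 3.098. In 10 of the 13, all blood libraries lay above all organs, beside 22.5% of all genes tested. *LYZ*, which encodes the antibacterial enzyme lysozyme, stood at 7846, 10920 and 7012 CPM in the blood libraries, and at 111 in liver, 303 in lung and 818 in spleen. Its log2FC was 4.39 (SE 1.08, adjusted p = 0.0438). *NCF4*, a subunit of the phagocyte oxidase, ranged from 203 to 383 CPM in blood and from 7.75 in liver to 40.9 in spleen. The difference had a log2FC of 3.77 (SE 0.74, adjusted p = 0.0287). *CSF2RB* encodes the beta chain shared by the receptors of GM-CSF, IL-3 and IL-5. Its levels were 756, 529 and 366 CPM in blood against 22.7 in liver, 20.8 in lung and 90.2 in spleen, a log2FC of 3.63 (SE 0.77, adjusted p = 0.0325). *NFAM1*, an immune receptor with an activation motif, gave a log2FC of 3.97, *PIM1*, a kinase induced by cytokines, 3.18, and *SERPINB2*, a plasminogen activator inhibitor, 3.53. *SERPINB2* was scarce, at 1.75 to 2.72 CPM in blood and at most 0.264 CPM in an organ. Spleen was the highest organ in 11 of the 13 genes. *RAC2*, a GTPase of leukocytes, stood at 448 to 826 CPM in blood and 14.0 to 191 in the organs and was not called (adjusted p = 0.09). *LTC4S*, the enzyme that forms leukotriene C4, was the member with a negative log2FC, at no more than 0.0673 CPM in blood and 2.42 CPM in lung, and was not called either (adjusted p = 0.106).

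All 3 platelet genes tested were called higher in blood, beside 6.04% of all genes tested, with a median log2FC of 5.19. *LY6G6F*, a platelet surface protein, stood at 108, 194 and 32.6 CPM in blood and at 1.35 in liver, 1.89 in lung and 5.69 in spleen. The groups were far apart, with a log2FC of 5.22 (SE 0.95, adjusted p = 0.0255), while the blood libraries themselves spread widely. *MPIG6B*, an inhibitory receptor of megakaryocytes and platelets, also had its lowest blood value in blood 3, at 16.2 CPM, below 87.3 in blood 1 and 50.4 in blood 2. In the organs it did not exceed 2.17 CPM (log2FC 5.19, SE 0.99, adjusted p = 0.0275). The third gene, *CD226*, is an adhesion receptor that platelets share with T and NK cells. Its blood levels of 53.8, 63.6 and 57.1 CPM lay close together.

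The T and NK cell list, which also holds *CD226*, had 4 of 11 genes called higher in blood, beside 6.04% of all genes tested. Of the list, 0 were called higher in the organs, and its median log2FC was 2.92. The other 7 were not called, among them *TCF7* (adjusted p = 0.0788) and *SAMD3*, the member with a negative log2FC (-1.82). *GRAP2*, an adaptor of T cell receptor signaling, stood at 98.6, 87.7 and 105 CPM in blood against 7.24 in liver, 7.87 in lung and 21.4 in spleen (log2FC 3.00, SE 0.51, adjusted p = 0.0234). *TAGAP*, a GTPase-activating protein of activated T cells, ranged from 277 to 327 CPM in blood and from 5.64 to 37.9 in the organs (log2FC 3.73, SE 0.73, adjusted p = 0.0287). *STX11*, a syntaxin needed for the release of cytotoxic granules, was uneven in blood, at 224 CPM in blood 1 and 55.8 and 67.4 in the others. None of the organs exceeded 9.17 CPM, and its log2FC was 4.38 (SE 1.09, adjusted p = 0.045). Several other lymphocyte genes were also high in spleen. *THEMIS*, required for T cell selection, was at 29.3 to 30.6 CPM in blood, at 0.45 in liver and 0.793 in lung, but at 18.0 in spleen (adjusted p = 0.28). *IL2RB*, the beta chain of the IL-2 receptor, was at 378 to 580 CPM in blood and at 113 in spleen, against 5.62 in liver and 6.18 in lung (adjusted p = 0.113). Blood 3 stood apart in *TCF7*, a transcription factor of naive T cells, with 136 CPM against 44.8 and 39.6 in the other blood libraries.

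Of the 3 B cell genes tested, *TNFRSF13C*, *DLA-DOA* and *DLA-DOB*, 0 were called by edgeR, beside 15.2% of all genes. Their smallest adjusted p-value was 0.476. *TNFRSF13C*, the BAFF receptor, varied from 0.323 CPM in blood 2 to 10.9 in blood 3, with 3.28 in spleen between them. *DLA-DOA*, a class II chaperone of B cells, was at 12.8, 20.2 and 57.3 CPM in blood and at 64.0 in spleen.

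Of 13 antigen presentation genes tested, 1 was called higher in blood and 0 higher in the organs, where 6.04% of all genes were called higher in blood, with a median log2FC of 0.83, and spleen was the highest organ in each of these 13. The called gene was *DLA-64*, a class I gene, at 1889, 2081 and 1690 CPM in blood against 128 in liver, 228 in lung and 317 in spleen (log2FC 3.07, SE 0.58, adjusted p = 0.0267). *DLA88*, the main classical class I gene, behaved differently within blood, at 1196, 240 and 1188 CPM, with 487 to 1194 CPM in the organs (log2FC 0.07, SE 0.74, adjusted p = 0.951). Class I genes are near-identical copies that vary between dogs, and reads can be lost or shifted between them in counting. *DLA-DRA*, the class II alpha chain, stood at 3874 to 4494 CPM in blood, 5204 in spleen, 1192 in lung and 705 in liver. The peptide transporter genes *TAP1* (log2FC 1.37) and *TAP2* (log2FC 1.19) had adjusted p-values of 0.0709 and 0.0515.

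Among cytokines, 0 of 7 genes tested were called by edgeR, beside 15.2% of all genes. *IL3*, *IL4*, *IL22* and *IL26* had too few counts to be tested. *IL23A*, a subunit of IL-23, was at 4.78 to 13.5 CPM in blood and 1.58 to 2.59 in the organs, without overlap and with an adjusted p-value of 0.0515. Of 6 cytokine receptor genes tested, *CSF2RB* and *IL22RA2* were called higher in blood and *TNFRSF11A* higher in the organs. Over all genes tested, such calls made up 6.04% and 9.14%. *IL22RA2* encodes a soluble protein that binds and blocks IL-22. It was measured at 29.6, 38.6 and 15.8 CPM in blood, against 0.405 in liver, 2.20 in lung and 0.541 in spleen (log2FC 4.73, SE 0.86, adjusted p = 0.0255). *TNFRSF11A*, the receptor RANK, reached 3.24 to 8.99 CPM in the organs and 0.495 to 1.36 in blood (log2FC -2.81, SE 0.67, adjusted p = 0.0399).

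Red cell genes were not uniformly higher in blood, and of 5 tested 0 were called in that direction, beside 6.04% of all genes. *FECH*, the last enzyme of heme synthesis, was at 245 and 178 CPM in blood 1 and blood 3 but at 43.9 in blood 2, below the spleen at 78.3 (adjusted p = 0.146). *TRIM58*, an erythroblast ubiquitin ligase, followed the same order, at 28.0, 3.09 and 23.1 CPM in the blood libraries and 3.78 in spleen (adjusted p = 0.163). *CYB5R3*, which reduces methemoglobin in red cells and serves lipid metabolism elsewhere, was called higher in the organs, at 319, 226 and 131 CPM in liver, lung and spleen against 33.8 to 50.3 in blood (log2FC -2.47, SE 0.44, adjusted p = 0.0247). The globin genes themselves had been targets of the depletion and are not analysed here.

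**Figure D2:**
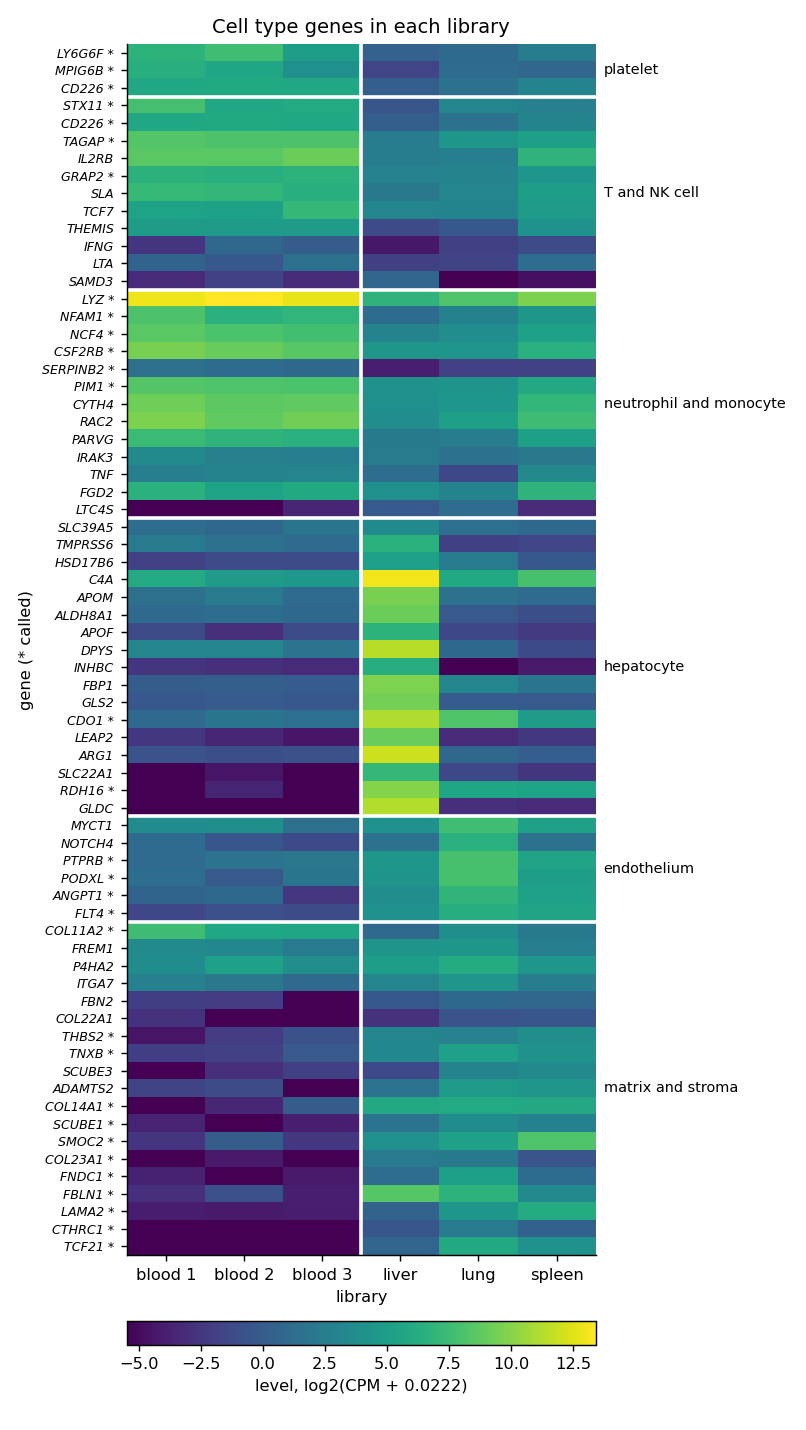
Levels of the tested genes of 6 cell type lists are shown as log2(CPM + 0.0222) in each of the 6 libraries, with an asterisk for genes called between blood and organs. The called platelet, T and NK cell, and neutrophil and monocyte genes are brightest in the 3 blood libraries, the hepatocyte genes in liver, and the endothelial genes in lung, while *FGD2* and *TNF* are brightest in spleen, *LTC4S* in lung and *SAMD3* in liver.

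On the organ side, 4 of 6 tested genes of the endothelial list were called higher in the organs, beside 9.14% of all genes. Among the 4 was *ANGPT1*, which perivascular cells and platelets make. Of the list, 0 were called higher in blood, and its median log2FC was -5.22. In all 6 the organs lay above blood, as in 23.6% of all genes, with lung as the highest organ. *FLT4*, the lymphatic receptor VEGFR3, was at 0.348, 0.529 and 0.421 CPM in blood and at 19.0 in liver, 77.5 in lung and 45.9 in spleen. Its log2FC was -6.78 (SE 0.68, adjusted p = 0.0123). *PTPRB*, the vascular endothelial tyrosine phosphatase, stood at 2.18 to 3.93 CPM in blood and reached 241 CPM in lung (log2FC -5.06, SE 1.02, adjusted p = 0.03). The sialomucin gene *PODXL* also peaked in lung, at 243 CPM, and had 0.839 to 3.68 CPM in blood (log2FC -5.39, SE 1.25, adjusted p = 0.0386). *ANGPT1*, the ligand of the Tie2 receptor, was at 1.49, 1.84 and 0.157 CPM in blood and 13.4 to 119 CPM in the organs (log2FC -5.63, SE 1.27, adjusted p = 0.0364). *MYCT1* (adjusted p = 0.0972) and *NOTCH4* (adjusted p = 0.0908) were not called, and the organ signal of *NOTCH4* came from lung, with 91.5 CPM against 2.98 in liver and 3.09 in spleen.

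The matrix and stroma list had the most calls of the lists on the organ side. It had 11 of 19 genes higher in the organs (against 9.14% of all genes) and 1 higher in blood (6.04%). Its median log2FC was -6.09, and 2 of its genes, *TCF21* and *CTHRC1*, had no count in any blood library. The medians of this list and of the lists below were unchanged when such genes were set at the bound that 3 counts give. A gene at or near 0 in 1 whole group passed the filter on low counts only through all 3 libraries of the other group. Its lack of overlap was thus fixed by the filter, also for *RSPO3* and *AK3* below. *TCF21*, a transcription factor of mesenchymal cells, was at 1.60 CPM in liver, 64.2 in lung and 17.6 in spleen. Against 3 counts in 1 blood library, these levels were at least 72.2-fold, 2893-fold and 791-fold higher (adjusted p = 0.034). *CTHRC1*, a secreted protein of activated fibroblasts, was at least 33.1-fold higher in liver, 209-fold in lung and 57.2-fold in spleen (adjusted p = 0.0287). *LAMA2*, the alpha 2 chain of laminin, stood at 0.037, 0.0344 and 0.0393 CPM in blood, which are 5, 5 and 7 counts, and at 1.41 in liver, 22.4 in lung and 71.5 in spleen (log2FC -9.72, SE 1.64, adjusted p = 0.023). *FBLN1*, the matrix glycoprotein fibulin 1, had its highest level in liver, at 353 CPM, with 106 in lung, 11.5 in spleen and at most 0.516 in blood (log2FC -9.45, SE 1.84, adjusted p = 0.0284). *SMOC2*, a calcium-binding matrix protein, was highest in spleen, at 289 CPM against 16.4 in liver and 39.6 in lung (log2FC -8.03, SE 1.68, adjusted p = 0.0319). *COL14A1* was even across the organs, at 59.7, 68.4 and 61.2 CPM, and at 0, 0.0688 and 1.05 CPM in blood (log2FC -7.38, SE 1.90, adjusted p = 0.0476). The remaining called members were *TNXB* (log2FC -5.67), *THBS2* (-5.32), *FNDC1* (-8.92), *COL23A1* (-8.15) and *SCUBE1* (-7.75).

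*COL11A2*, a chain of the cartilage collagen XI, went the other way. It stood at 183, 56.2 and 51.5 CPM in blood and at 2.07 in liver, 14.8 in lung and 4.37 in spleen (log2FC 3.77, SE 0.95, adjusted p = 0.0451). The call was lost without the liver (adjusted p = 0.0538). Its neighbour in the RefSeq gene table of the dog assembly UU_Cfam_GSD_1.0 is *RXRB*, a nuclear receptor, which was at 100.2 to 178 CPM in blood and 48.7 to 52.5 CPM in the organs. The strand setting of the counting is not given in the sources used here, and the part of neighbouring reads in this value was not tested.

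All 19 hepatocyte genes of the list were over 1.5 log2 units higher in liver than in any other library. Of 17 tested, 2 were called higher in the organs, beside 9.14% of all genes, and 0 higher in blood, with a median log2FC of -7.91. Summed over the list, the level was 39020 CPM in liver, 442 in lung, 334 in spleen and at most 94.7 in blood. Of these sums, *C4A* made up 63.5 CPM in lung and 246 in spleen, and it was at 24.2 to 68.4 in blood. Without the liver, 3 of the list were called higher in the organs and 1 higher in blood. The latter was *TMPRSS6*, at 2.16 to 5.14 CPM in blood, 0.248 in lung and 0.327 in spleen (adjusted p = 0.0329 by edgeR). *RDH16*, a retinol dehydrogenase, was also found in lung and spleen, at 51.8 and 45.3 CPM beside 979 in liver, while the blood libraries had 0, 9 and 0 counts (log2FC -14.05, SE 2.72, adjusted p = 0.0281). *CDO1*, cysteine dioxygenase, stood at 2288 CPM in liver, 300.4 in lung and 30.9 in spleen against 1.98 to 3.53 in blood (log2FC -8.34, SE 1.78, adjusted p = 0.0331). *ARG1*, the arginase of the urea cycle, reached 3943 CPM in liver, but lung and spleen, at 1.85 and 1.07 CPM, were near the blood levels of 0.488 to 0.629 (log2FC -11.21, SE 3.67, adjusted p = 0.0824). *PLG*, plasminogen, was at 12510 CPM in liver, with 0 counts in each blood library, 1 in lung and 4 in spleen, and did not pass the filter on low counts, which asks for counts in several libraries.

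Epithelial genes were mostly highest in lung, which was the highest organ in 6 of the 7 on the list, and cilium genes were mixed. Of 6 epithelial genes tested, 1 was called higher in the organs, beside 9.14% of all genes, and 0 higher in blood (median log2FC -4.14). Of 8 motile cilium genes, 0 were called by edgeR, beside 15.2% of all genes (median log2FC -0.52). The smallest adjusted p-value of the cilium genes was 0.073. The called gene, *ERBB3*, a receptor of the EGFR family, was at 142 CPM in liver, 74.5 in lung and 10.2 in spleen, and at 4.17 to 7.62 in blood (log2FC -3.58, SE 0.93, adjusted p = 0.0488). Without the liver, its adjusted p-value was 0.0605. *AGER*, the marker of type I alveolar cells, stood at 1456 CPM in lung, 2.52 in liver and 3.25 in spleen, whereas the blood libraries held 12.3 to 21.9 CPM. *GRHL2*, an epithelial transcription factor, was at 26.2 CPM in lung and no more than 0.0412 CPM in blood (adjusted p = 0.0609). Among cilium genes, *DNAH8*, an axonemal dynein chain, was at 4.03, 6.47 and 4.35 CPM in blood and at most 0.707 CPM in an organ (adjusted p = 0.073), and was called higher in blood without the liver (adjusted p = 0.0296). *KIF27*, a kinesin, was highest in liver, at 11.4 CPM against 5.72 in lung.

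Of 8 Wnt and Hedgehog genes tested, 3 were called higher in the organs, beside 9.14% of all genes, and 0 higher in blood. The list median log2FC was -3.87. *RSPO3*, an R-spondin that amplifies Wnt signals, had no count in blood and was at 10.1 CPM in liver, 0.84 in lung and 1.51 in spleen, which is at least 454-fold, 37.8-fold and 68.1-fold above the level of 3 counts (adjusted p = 0.0346). *SMO*, the Hedgehog signal transducer, was at 0.202 to 1.07 CPM in blood and 10.9 to 43.2 CPM in the organs (log2FC -5.35, SE 0.96, adjusted p = 0.025). *PTCH1*, the Hedgehog receptor, stood at 0.451 to 1.25 CPM in blood and 6.54 to 10.3 CPM in the organs (log2FC -3.48, SE 0.64, adjusted p = 0.0259). The pathway's transcription factor *GLI1* was higher by mean in blood, at 21.1, 19.0 and 6.46 CPM, and overlapped the liver at 6.94 CPM (adjusted p = 0.119).

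Genes that every cell uses were examined too. None of the 12 ribosome and translation genes and none of the 9 mitochondrial energy genes tested was called by edgeR, beside 15.2% of all genes tested, with median log2FC of -0.42 and -0.74 and smallest adjusted p-values of 0.0815 and 0.0752. *RPL3* was at 568 to 940 CPM in blood and 742 to 1115 CPM in the organs. *ATP5F1B*, a subunit of ATP synthase, was at 400.1 to 452 CPM in blood, 434 in lung, 470.3 in spleen and 2011 in liver. *CYC1*, cytochrome c1, is listed at 0 in all 24 tissue libraries. Of 19 cell cycle genes, 1 was called in each direction, beside 6.04% (blood) and 9.14% (organs) of all genes. *LMNB1*, which encodes lamin B1, was called higher in blood (log2FC 1.67). *PRIM1*, a DNA primase subunit, was called higher in the organs (log2FC -1.65), a call lost without the liver (adjusted p = 0.055). The list median log2FC was 0.05 and changed sign with the scaling.

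Of 10 immediate early and stress genes, 1 was called in each direction, beside 6.04% (blood) and 9.14% (organs) of all genes. The list median log2FC was 0.50. *EGR1*, a transcription factor induced within minutes of stimulation, was at 2.72, 2.81 and 3.73 CPM in blood and at 21.4 in liver, 286 in lung and 57.4 in spleen (log2FC -5.30, SE 1.07, adjusted p = 0.0298). *SGK1*, a kinase induced by glucocorticoids, was at 793, 774 and 211 CPM in blood and 25.6 to 105 CPM in the organs (log2FC 3.38, SE 0.81, adjusted p = 0.0413). Without the liver its adjusted p-value was 0.0664. Of 7 interferon response genes, 1 was called higher in blood, beside 6.04% of all genes, and 0 higher in the organs. It was *IRF1*, at 463 to 656 CPM against 35.6 to 125 CPM (log2FC 2.74, SE 0.57, adjusted p = 0.0312). The list median log2FC was 0.99.

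**Figure D3:**
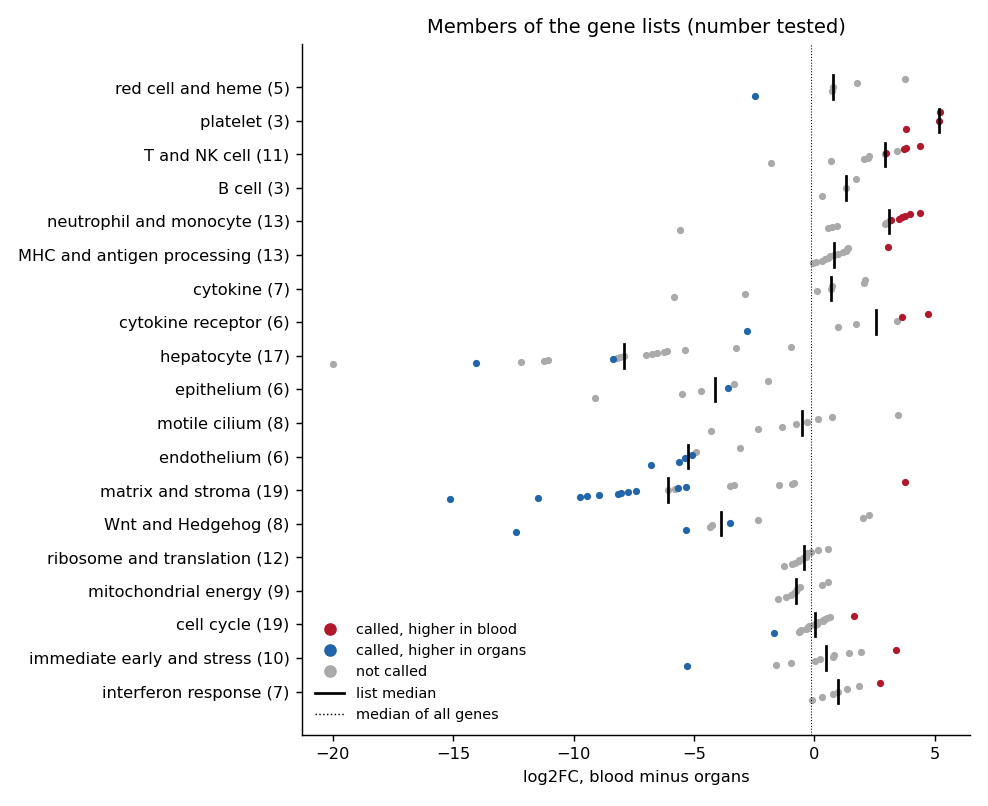
Each point is a tested gene of 1 of 19 lists, placed by log2FC (blood minus organs), with the number tested in brackets, black bars at list medians and a dotted line at the median of all genes (-0.13). The platelet list has the highest median (5.19) and the hepatocyte list the lowest (-7.91), and the cell cycle list (0.05) lies near the line.

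Apart from the lists, the 12 largest log2FC in each direction were taken among called genes with a name and a mean of at least 3 log2 CPM in the higher group. Scarcer genes can have larger fitted values, such as *AK3*, chosen after its values were seen, with 321, 142 and 157 counts in blood and 0 in every organ (adjusted p = 0.0234). On the blood side, *DCSTAMP* had the largest difference above this limit. It encodes a membrane protein of dendritic cells and osteoclasts that is needed for cell fusion. Blood held 9.04, 10.2 and 8.22 CPM, a narrow range, against 0.015 in liver, 0.177 in lung and 0.3 in spleen (log2FC 5.76, SE 1.05, adjusted p = 0.0258). *AGAP2*, a regulator of Arf GTPases, stood at 120.2 to 214 CPM in blood and reached 15.99 CPM in spleen (log2FC 4.52, SE 0.92, adjusted p = 0.0301). *ARHGAP9*, a GTPase-activating protein of blood cells, was at 128 to 284 CPM in blood and 28.2 CPM in spleen (log2FC 4.10, SE 1.06, adjusted p = 0.0485). *MAPK13*, a p38 kinase, was unlike most of this group in that lung, at 13.5 CPM, lay above spleen at 3.92 CPM (log2FC 3.89, SE 0.78, adjusted p = 0.0298). The transmembrane protein gene *TMEM71* had a log2FC of 4.05.

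On the organ side, the genes with the largest differences were close to undetected in blood. *KDELR3*, a receptor that returns proteins to the endoplasmic reticulum, had 0, 1 and 0 counts in blood and 15.2, 16.1 and 3.57 CPM in liver, lung and spleen. Counts pooled over the libraries of each group, set against their pooled scaled library sizes, differed 4755-fold. The exact 95% interval from counting alone was 853 to 187800 (adjusted p = 0.0145 by edgeR). *ENPP1*, which forms pyrophosphate outside cells, had 0, 4 and 3 counts in blood and stood at 222 CPM in liver, 10.1 in lung and 21.9 in spleen (log2FC -12.39, SE 1.99, adjusted p = 0.0213). *ATP8B1*, a phospholipid flippase of epithelial membranes, had 10, 0 and 0 counts in blood against 174, 37.6 and 12.6 CPM in the organs (log2FC -11.59, SE 2.14, adjusted p = 0.0263). *ZNF532*, a zinc finger gene, was highest in lung, at 81.1 CPM, with 2 to 5 counts per blood library (log2FC -10.64, SE 1.35, adjusted p = 0.0164). *CDC42EP1*, an effector of the GTPase Cdc42, had counts in 1 blood library, blood 3, with 16 (log2FC -9.58, SE 1.93, adjusted p = 0.0298). An identifier with only a human homolog name, *CTSV* (a lysosomal cathepsin), was even within blood at 0.208 to 0.252 CPM and at 289, 65.6 and 48.2 CPM in the organs (log2FC -9.19, SE 1.00, adjusted p = 0.014). *SEMA6A*, a membrane semaphorin, had a log2FC of -8.78 (SE 1.72, adjusted p = 0.0287). *ARHGEF25*, a guanine nucleotide exchange factor, had the smallest adjusted p-value of all genes tested, 0.00936. It had 8, 11 and 9 counts in blood and stood at 16.2, 28.1 and 36.3 CPM in liver, lung and spleen (log2FC -8.75, SE 0.57).

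**Figure D4:**
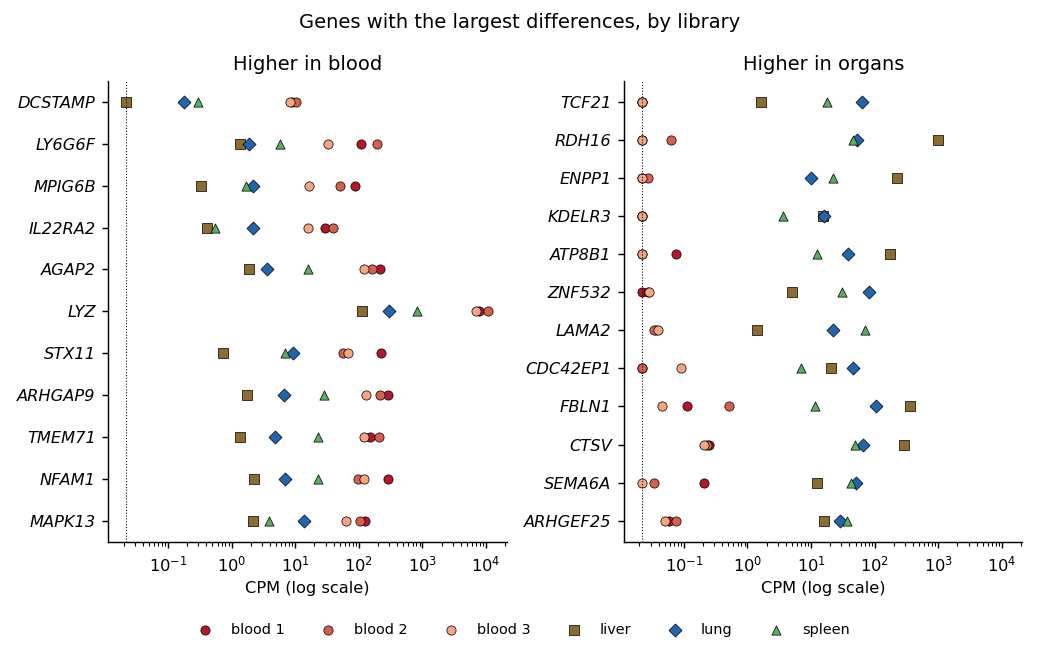
CPM (log scale) in each library for genes with the largest log2FC among named, called genes with a mean of at least 3 log2 CPM in the higher group, 11 higher in blood and 12 higher in the organs. Values under 0.0222 CPM, the level of 3 counts in a blood library, are drawn on the dotted line, and in every gene the 3 circles of blood are separate from the square (liver), diamond (lung) and triangle (spleen).

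The most abundant called identifiers without a name were also examined. ENSCAFG00000003376 stood at 6744, 4439 and 3141 CPM in blood and 13.4 to 51.2 CPM in the organs (log2FC 7.26, SE 0.98, adjusted p = 0.0175). ENSCAFG00000029470 ranged from 1697 CPM in blood 3 to 5938 in blood 2, with no organ above 137 CPM (log2FC 5.50, SE 0.96, adjusted p = 0.0244). In the other direction, ENSCAFG00000022742 was at 230 to 395 CPM in blood and at 10460 in liver, 2501 in lung and 2331 in spleen (log2FC -4.12, SE 0.96, adjusted p = 0.0383). ENSCAFG00000022728 had a log2FC of -4.51 (SE 1.13, adjusted p = 0.0454) and was also highest in liver, at 11930 CPM.

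What was particular to 1 organ could only be described, since each organ is 1 library. A gene was counted for a library when its log2 CPM there was over 1.5 above the highest of the other 5, among 22095 genes with at least 10 counts in a library. Liver had 1941 such genes (8.78%), lung 2160 (9.78%) and spleen 739 (3.34%). Blood 1, blood 2 and blood 3 had 268 (1.21%), 187 (0.846%) and 115 (0.52%). Many of these are scarce. With an offset of 0.25 CPM, an alternative added after the data were seen, the counts were 1638 for liver, 1304 for lung and 388 for spleen, so the order of liver and lung changed with the offset.

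**Figure D5:**
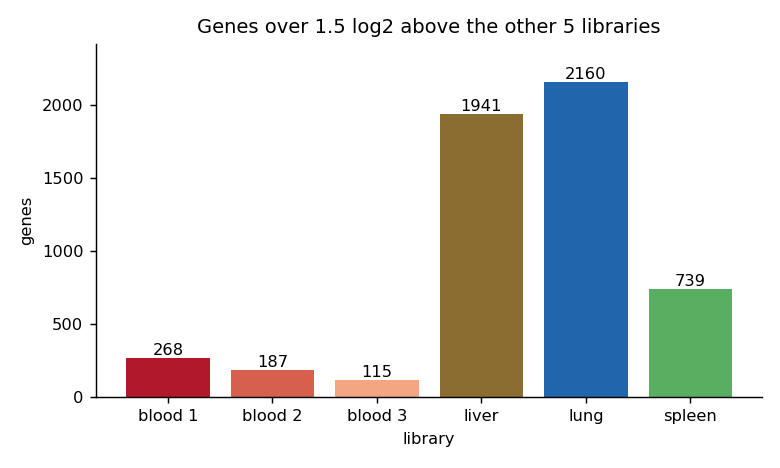
Bars give, for each of the 6 libraries, the number of genes whose log2 CPM was over 1.5 above the highest of the other 5 libraries (22095 genes examined). Lung (2160) and liver (1941) have the tallest bars, spleen has 739, and the blood libraries have 115 to 268.

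The named genes of these sets were set beside the tissue labels. The liver set was led by *PLG*, *LECT2* (a hepatokine, 2100 CPM in liver and 0 counts in the other 5 libraries), *GLDC* (the glycine cleavage enzyme, 2462 CPM) and *LEAP2* (a peptide made by liver and gut, 554 CPM). In lung, *ROS1*, a receptor tyrosine kinase, stood at 52.9 CPM with no other library above 0.17, and *WNT3A* at 10.6 CPM with 0 counts elsewhere. *PVALB*, a calcium buffer of muscle and neurons, was at 264 CPM in lung and at most 1.52 CPM in any other library. *CDH19*, a cadherin of Schwann cells, led the spleen set at 20.3 CPM, followed by *MCHR1*, the receptor of melanin-concentrating hormone, at 34.3 CPM. *TNFRSF11B*, the RANK decoy receptor osteoprotegerin, was at 26.1 CPM in spleen and at most 3.25 CPM elsewhere. The hepatocyte list was highest in the library labelled liver, and *AGER*, the marker of type I alveolar cells, in that labelled lung, at 1456 CPM. *ROS1*, *WNT3A* and *PVALB* were taken for standing alone and do not check the lung label. No spleen-defining marker was among the genes with a name, although spleen was the highest organ for the class II genes tested.

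The tumors of the study give a further reference, as they share the BMD breed with the blood libraries and the flow cell with the organs. They are 15 HS tumors and 3 of the hemophagocytic subtype, from solid sites that include lung, liver and spleen. Being solid tissue is thus also shared with the organs and cannot be told apart from the flow cell here. For each gene, the median log2 CPM of the 18 tumors was placed nearer to the blood mean or to the organ mean. It was nearer to the organs in 739 of the 1061 genes higher in blood (69.7%) and in 1071 of the 1605 higher in the organs (66.7%), beside 58.5% of all genes tested. The platelet genes had tumor medians of 0.133 CPM (*LY6G6F*), 0.784 (*MPIG6B*) and 1.999 (*CD226*). *LYZ* had a tumor median of 1282 CPM, between the spleen and the blood libraries. That of *DLA-64* was 1658 CPM, near its blood levels, with tumors from 288 to 5539 CPM. Tumor levels were scaled over 24 libraries and the blood and organ levels over 6, so close values cannot be ordered. *THBS2*, a matrix thrombospondin, had a tumor median of 68.6 CPM, above each of the 3 organs (7.34 to 14.2 CPM). *FLT4* and *LAMA2* had tumor medians of 12.5 and 6.198 CPM, below both lung and spleen.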

How the data were processed

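RNA was measured in 6 unaffected tissue libraries, namely 3 blood libraries and 3 organ libraries, with 18 tumors as a reference. The authors trimmed reads with cutadapt 3.7, aligned them with STAR 2.7.10a to CanFam3.1 and counted them with HTSeq 2.0.0, and deposited raw counts per gene for 32704 Ensembl identifiers. The annotation release and strand setting are not given in the sources used here. From these counts, differences were tested over the 6 libraries by the quasi-likelihood method of edgeR 4.0.16, after filtering by filterByExpr and TMM scaling and with p-values adjusted by Benjamini-Hochberg (R 4.3.3, limma 3.58.1), with no covariate. DESeq2 1.42.0 was the alternative test. SE is the log2FC divided by the root of the F statistic. Python 3.11.15, pandas 2.3.3, numpy 2.4.6 and matplotlib 3.10.9 were used for counts and figures. Tumor CPM were scaled over 24 libraries.

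Names came from the readable part of the supplementary tables, which pair 1117 identifiers with a name (92 with a human homolog only). Of these, 947 were tested. No annotation of CanFam3.1 was used here, so no positions or sequences are given. The rule for named genes took the 12 largest log2FC per direction among named, called genes without overlap and with a mean of at least 3 log2 CPM (prior count of 2), the members of 19 gene lists, and 2 unnamed identifiers per direction. Of the genes higher in blood, 1 that the rule takes is not reported here. *CYC1*, *RXRB* and single-organ genes outside the lists were named after their values were seen. The comparison, lists and rule were chosen with earlier results of these data known. Lists are described by counts and medians, without a test of the list.

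Counts were simulated for this comparison over 17557 genes, of which 200 were changed. On these, edgeR recovered 3% of genes changed by a log2FC of 2 and 18% at 3, with 0 false calls. DESeq2 recovered 16% and 50%, with 61 false calls. In the real data 6510 genes had an unadjusted edgeR p-value under 0.05. The adjustment depends on how many genes change, so these recovered shares are not those of the real comparison. The simulation also gave both groups the same spread, whereas the real biological coefficient of variation was 0.536 in blood and 0.936 among the organs. The false calls of the real comparison can therefore not be read from it. Intervals and the limit of 3 counts cover counting error only, and the p-values measure the spread between these libraries.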

Additional observations from a re-analysis of the deposited data

How the results depend on the processing

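For 70 called genes taken by the naming rule, the lists or the observations below, no log2FC changed sign under any alternative run. Relative log expression factors gave 2696 calls in all and kept 69 of the 70, all but *SOD2*, and DESeq2 called each of the 67 to which it gave an adjusted p-value. Of the 70, calls were lost by 7 in the fit with 24 samples (including *LY6G6F*, *CD226* and *SERPINB2*), 7 in the robust fit (including *ARHGAP9*, *TMEM71*, *ERBB3* and *COL14A1*), 16 without a filter on low counts (including *LYZ*, *STX11*, *NFAM1*, *TNFRSF11A* and *SGK1*) and 47 in the test against 1.5. DESeq2 gave 4837 calls (1979 higher in blood, 2858 in the organs), and a fit with all 24 tissue samples 4521 (3182 higher in the organs). Without a filter on low counts 1751 genes were called (609 higher in blood), and a test of each log2FC against 1.5 left 861 (214 and 647). Benjamini-Yekutieli adjustment left 0, with 6510 genes at an unadjusted p-value under 0.05. Leaving out 1 library gave 0 to 3317 calls, 0 to 1308 higher in blood and 0 to 2272 higher in the organs. The 0 came from leaving out any blood library, which ended each of the 70 calls. Leaving out lung gave 233 and 726 calls and ended 50 of the 70, the other 20 including *IL22RA2*, *MAPK13*, *KDELR3*, *LAMA2*, *ARHGEF25*, *FLT4*, *PTPRB*, *SMO* and *EGR1*. Leaving out spleen ended 10, among them *STX11*, *SERPINB2*, *TNFRSF11A*, *COL14A1*, *COL11A2*, *PRIM1* and *SGK1*, and leaving out the liver ended 6. Without the liver, 3305 genes were called, 2252 of them shared with the 2666 (84.5%). At a cutoff of 3 in place of 1.5, genes standing alone numbered 1046 in liver, 923 in lung, 272 in spleen and 29, 41 and 16 in blood 1 to 3, and with an offset of 0.25 CPM 1304 in lung, 388 in spleen and 50, 28 and 19 in blood 1 to 3. With relative log expression factors, the tumor median was nearer to the organs in 72.9% of genes higher in blood and 63.9% of those higher in the organs. The cell cycle median log2FC changed sign with relative log expression factors (-0.05), DESeq2 (-0.05), a filter at 1 CPM (-0.06), without blood 3 (-0.42) and without the liver (-0.25), the cilium median with the filter at 1 CPM (0.01), and the B cell median without blood 3 (-0.27). The cause of these changes was not tested. Genes expressed in 1 organ only often failed the filter, and genes under 0.0222 CPM could not be told from 0. No paired analysis was possible because the blood came from BMDs and the organs from GSDs, so no dog gave both.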

Other observations

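Solute carriers, grouped by symbol after the values were seen, had 22 named genes, of which 18 were tested. *SLC45A4*, a sugar transporter, was called higher in blood, at 53.1, 18.4 and 28.7 CPM against 5.50 to 8.18 CPM in the organs, a call lost without the liver (adjusted p = 0.0501). *SLC18B1*, *SLC26A10* and *SLC2A12* were called higher in the organs, and the family median log2FC was -1.35. Over all genes tested, 6.04% were called higher in blood and 9.14% higher in the organs. *SLC2A12*, a glucose transporter, had no count in blood 1 and blood 2 and was at 9.07 CPM in liver, 3.13 in lung and 0.971 in spleen. Of 8 named potassium channel genes 4 were tested, and *KCNK17* and *KCNN2* were called higher in the organs, beside 9.14% of all genes. Of 15 named olfactory receptor genes, 0 had enough counts to be tested.

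Some further genes called higher in blood were picked after their values were seen. *CBX7*, a Polycomb subunit, was at 142, 150 and 133 CPM in blood against 21.1 in liver, 39.1 in lung and 40.8 in spleen (log2FC 2.07). *SUN2*, a protein of the inner nuclear membrane, was at 515 to 652 CPM in blood and 110 to 144 CPM in the organs (log2FC 2.18). *SOD2*, the mitochondrial superoxide dismutase, stood at 2614, 3262 and 1187 CPM in blood, 424 in liver, 140 in lung and 107 in spleen (log2FC 3.40, adjusted p = 0.0433), a call lost with relative log expression factors (adjusted p = 0.051).

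*GLI1* lies next to *ARHGAP9* in the RefSeq gene table, and both had their highest level in blood 1 and their lowest blood level in blood 3. In the organs their orders were opposite. *GLI1* was at 6.94 CPM in liver, 3.27 in lung and 1.15 in spleen, and *ARHGAP9* at 1.77, 6.70 and 28.25 CPM. The part of neighbouring reads in the *GLI1* value was not tested. *GPAA1* and *SHARPIN*, the neighbours of *CYC1*, had counts in every tissue library.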
